A study of Bos taurus with 8 samples.

Results

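The genes described here are the abundant but not dominant small RNA genes of bovine alveolar macrophages, the phagocytes that live in the air spaces of the lung. They were chosen by level alone: a gene was taken if its plain mean over the 8 libraries was at least 1000 and below 10000 CPM, where CPM is reads per 1000000 reads assigned to the genes of the table. This gave 34 of 1153 genes, at ranks 4 to 37 in mean abundance, and each is called below by that rank (gene 4 to gene 37). The means that chose them are given as a description only. The libraries form 1 group of 8 Bos taurus animals, 1 library each, with no treated or control group, and the labels give no breed, age or sex. Macrophages from lung lavage had been frozen, thawed and kept for 24 hours in medium with 10% fetal bovine serum, and only cells that adhered were used. Serum of the same species was thus present, and its small RNA and the cells' own cannot be told apart in these counts.

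The study was made to profile microRNAs. A microRNA gene is transcribed as a longer precursor that the nuclear enzyme Drosha and the cytoplasmic enzyme Dicer cut to a short mature strand, which guides an Argonaute protein to matching messenger RNAs and lowers their output. Several microRNA genes can lie on one primary transcript, and genes at different loci can give the same or nearly the same mature strand, so levels of different microRNA genes may move together. In macrophages microRNAs are known for tuning innate immune signalling and differentiation. The table names genes by Ensembl identifier without a microRNA name, and 0 of 1153 identifiers matched the RefSeq gene table used here. Names, sequences and positions of the 34 genes are therefore not reported, and neither markers of macrophages nor those of other cell types could be read. For reads that fit several loci, the way of counting was not given in the sources used here. Levels of genes with near-identical copies are for that reason uncertain.

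Together the 34 genes took 9.65% ± 0.924 (SD, n = 8) of the assigned reads, while the 3 genes above them took 88.4% ± 1.11. The share of the 34 genes was 8.30, 8.80, 10.1, 10.7, 8.94, 10.9, 9.53 and 10.0% in animals 1 to 8. The lowest share, in animal 1, had an exact Clopper-Pearson 95% interval of 8.27 to 8.32%, and the highest, in animal 6, one of 10.89 to 10.95%. Each library held 366028 to 642991 reads in these genes, out of 3638161 to 5888148. Intervals cover counting error only. Shares of 1 library sum to 100%, so no relation between the share of the 34 genes and that of the leading 3 was tested. Of the reads left after the leading 3 genes are set aside, the 34 genes held 83.5% ± 0.967 (SD, n = 8), between 81.9% (animal 1) and 85.4% (animal 7).

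The limits of the choice fell in gaps of unequal width. Gene 3, just outside, averaged 17511 CPM and gene 4, just inside, 9552. At the lower limit gene 37 averaged 1016 and gene 38 907. Of the 34 genes, 16 stayed between both limits in each of the 8 animals, 16 fell below 1000 CPM in at least 1 animal and 3 reached 10000 in at least 1. A median in place of the mean would have kept 31 of them, dropping genes 28, 35 and 37. Without animal 1 the mean of gene 37 was 796 CPM, and without animal 8 that of gene 35 was 864.

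The most abundant of the 34 was gene 4, ENSBTAG00000029930. Its level was 8157, 10508, 8581, 9701, 8700, 9700, 8515 and 12551 CPM in animals 1 to 8, a mean of 9552 ± 1446 (SD, n = 8). It ranked first or second among the 34 genes in every animal and made up 9.94% ± 1.5 of their reads. Gene 5 had 6236, 6275, 6909, 5541, 8045, 9605, 12734 and 4756 CPM, and so was highest in animal 7 and lowest in animal 8. Gene 6 had 6455, 4803, 5104, 8537, 4932, 5015, 5422 and 5190 CPM. In gene 6 the values of 7 animals lay between 4803 and 6455 and animal 4 stood above them.

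Gene 7 (ENSBTAG00000029771) had 5338, 3734, 7784, 6974, 6222, 6992, 4970 and 3031 CPM in animals 1 to 8, with animals 2 and 8 lowest. Gene 8 lay in a narrower band, at 4915, 4488, 5583, 4953, 6457, 6426, 5324 and 4975 CPM. Gene 9 had 4181, 5572, 6176, 6842, 2994, 5559, 4686 and 6328 CPM, with its low value in animal 5. These 6 genes had the only means of at least 5000 CPM and held 40.6% ± 2.10 (SD, n = 8) of the reads of the 34 genes. Below them levels fell slowly, and 19 of the 34 genes had means under 2000 CPM.

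**Figure D1:**
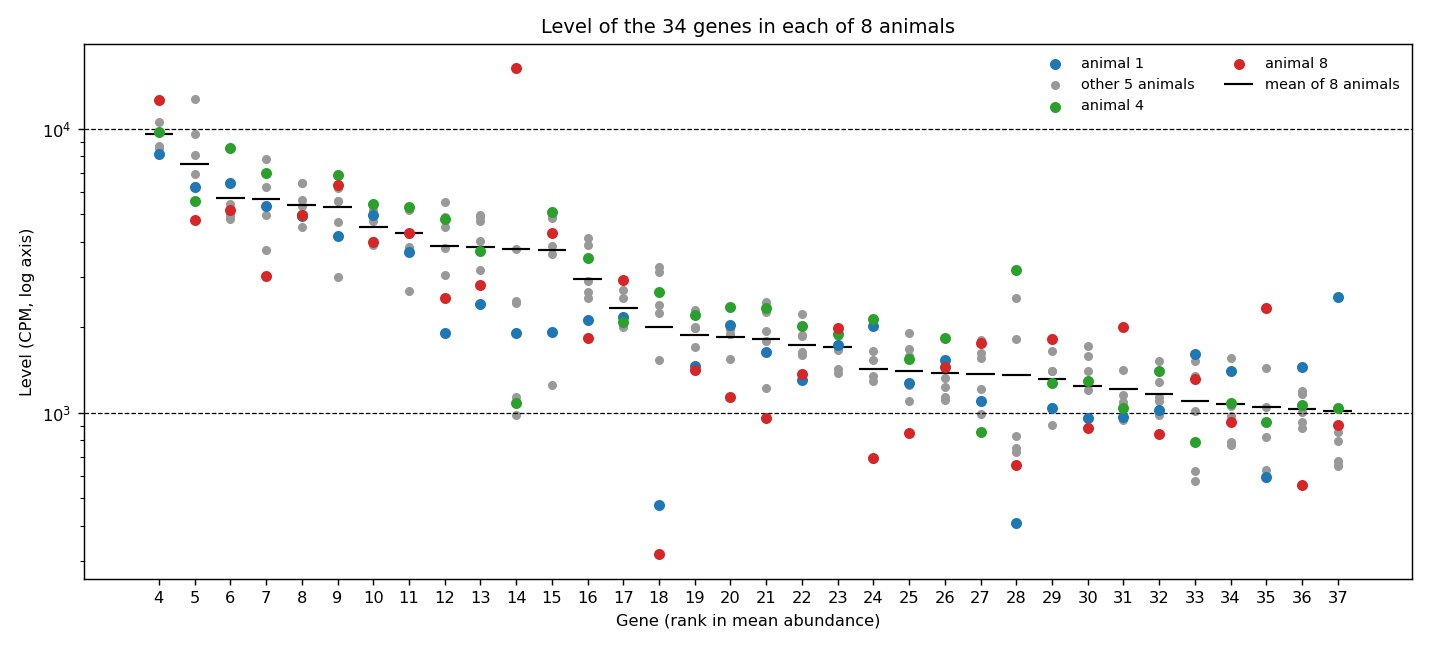
Level in CPM (vertical log axis) of the 34 genes, ordered by rank in mean abundance (horizontal axis). Each point is 1 animal, with animals 1, 4 and 8 coloured, black lines are means of 8 animals, and dashed lines are the limits of 1000 and 10000 CPM. Values of neighbouring genes overlap along the whole series, and animal 8 stands far above the rest in gene 14 at 16287 CPM.

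The order of the genes by mean was loose from one gene to the next. In 0 of the 33 neighbouring pairs did the more abundant gene exceed the other in all 8 animals, and it did so in 7 animals in 2 pairs (gene 4 over 5 and gene 13 over 14). In 15 pairs it was higher in 4 animals or fewer. The mean log2 ratio of neighbours was smaller than its SD between animals in each of the 33 pairs. Gene 4 exceeded gene 5 by 0.40 ± 0.60 on the log2 scale, for example, and gene 19 exceeded gene 20 by 0.03 ± 0.24. The order over the whole range was steadier, with a Kendall coefficient of concordance of 0.795 among the 8 animals (1 would be the same order in each). This coefficient describes genes picked to span a range of levels and was not tested. Ranked within an animal among the 34, genes moved by a median of 10 places between animals, by 1 place for gene 4 and by 31 for gene 14. The first 10 of an animal were drawn from 13 genes, 6 of which were among them in every animal.

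How far each gene differed between animals was measured as the SD of log2(CPM + 1), a scale that slightly understates change. Its median over the 34 genes was 0.38, with quartiles of 0.28 and 0.52. The same median was 0.48 over the 43 genes between 100 and 1000 CPM and 0.45 over all 143 genes that averaged 10 CPM or more. These medians are a description and their difference was not tested. The coefficient of variation ran from 12.6 to 137% with a median of 25.5%. Counting error alone would give 0.458 to 1.40% at the mean number of reads of each gene. The lowest single value rested on 1469 reads, where counting error is larger than at the mean. The highest animal exceeded the lowest by 1.39 to 16.5 times: by less than 2 times in 12 genes, by at least 4 times in 4 genes and by an amount in between in 18. Since each animal gave a single library, spread of culture and library preparation is part of these values.

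The 8 steadiest genes were 23, 8, 10, 17, 4, 26, 19 and 22, with SDs of 0.19 to 0.27 on the log2 scale. Gene 23 had 1737, 1658, 1868, 1894, 1424, 1698, 1386 and 1986 CPM in animals 1 to 8, a mean of 1706 ± 216 (SD, n = 8). Gene 10 had 4973, 3880, 4008, 5407, 4022, 5166, 4735 and 3979 CPM. Its 4 values from 3880 to 4022, in animals 2, 3, 5 and 8, lay apart from the other 4, which began at 4735. Gene 17 had 2168, 2705, 2149, 2091, 2102, 2535, 2005 and 2931 CPM, with animals 2, 6 and 8 above the other 5.

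Of the remaining steady genes, gene 26 had 1537, 1234, 1111, 1827, 1421, 1322, 1134 and 1455 CPM, with animal 4 highest. Gene 19 had 1457, 1996, 1986, 2205, 2294, 2006, 1707 and 1415 CPM, so animals 1 and 8 were its lowest. Gene 22 had 1303, 1874, 1858, 2021, 1640, 2220, 1597 and 1369 CPM, and animals 1 and 8 were again lowest. The SD of gene 4 was 0.21 with all animals and 0.13 without animal 8. The other 7 steady genes kept SDs between 0.16 and 0.29 when any 1 animal was left out.

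At the other end, an SD of 1 or more was found in 3 of the 34 genes, against 10.5% of the 143 genes averaging 10 CPM or more (15 genes). Gene 14, ENSBTAG00000036423, was the most variable, with an SD of 1.32. Its level was 1909, 2465, 985, 1086, 1137, 2431, 3763 and 16287 CPM in animals 1 to 8. In animal 8 it exceeded the next animal by 4.33 times and made up 16.3% of the reads of the 34 genes, against 0.979 to 3.95% in the others. Its mean was 3758 ± 5148 (SD, n = 8) with that animal and 1968 without it. The SD without animal 8 was 0.74, and the other 7 animals themselves split, animals 3, 4 and 5 lying near 1000 CPM and the other 4 at 1909 or more.

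Gene 18 had an SD of 1.29 and levels of 473, 1539, 3270, 2670, 2243, 3134, 2391 and 318 CPM. Animals 1 and 8 were thus far below the other 6, and the SD was 0.97 without animal 8. Gene 28 had an SD of 1.05, with 408, 729, 1814, 3173, 753, 2538, 827 and 653 CPM. Its 3 high values, in animals 3, 4 and 6, did not overlap the 5 low ones, which reached 827 CPM. Without animal 8 only gene 28 kept an SD of at least 1, at 1.09.

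Among the next 5 in variability, different animals were low or high. Gene 15 (SD 0.74) had 1925, 3861, 4850, 5098, 1255, 4957, 3623 and 4285 CPM, with animals 1 and 5 low. Gene 35 (SD 0.70) had 595, 588, 1044, 927, 822, 1440, 629 and 2343 CPM, with animal 8 highest. Without animal 5 the SD of gene 15 was 0.49, and without animal 8 that of gene 35 was 0.48. Gene 37 (SD 0.65) had 2555, 857, 649, 1036, 656, 796, 676 and 903 CPM, and its spread rested on animal 1, without which the SD was 0.26. Gene 24 (SD 0.63) had 2023, 1353, 1651, 2145, 1297, 1530, 689 and 696 CPM, with animals 7 and 8 low. Gene 33 (SD 0.58) had 1605, 1348, 626, 790, 578, 1014, 1520 and 1320 CPM, with animals 3, 4 and 5 low. Animals 3, 4 and 5 were also the 3 lowest in gene 14.

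Because 3 genes hold most reads of each library, the levels were also rescaled to 1000000 reads over the other genes. This multiplied the deposited values by 7.60 in animal 6 up to 9.88 in animal 1. The SD became smaller in 18 of the 34 genes and larger in 16, and the median SD went from 0.38 to 0.36. The largest fall was in gene 28, from 1.05 to 0.93, and the largest rise in gene 27, from 0.41 to 0.50. Gene 14 stayed at 1.33 and gene 18 at 1.24, while gene 23 went from 0.19 to 0.17. All 8 of the steadiest and all 8 of the most variable genes were the same under this rescaling. With median-of-ratios factors, which scale each library by its typical gene, the same 2 lists of 8 were found again.

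**Figure D2:**
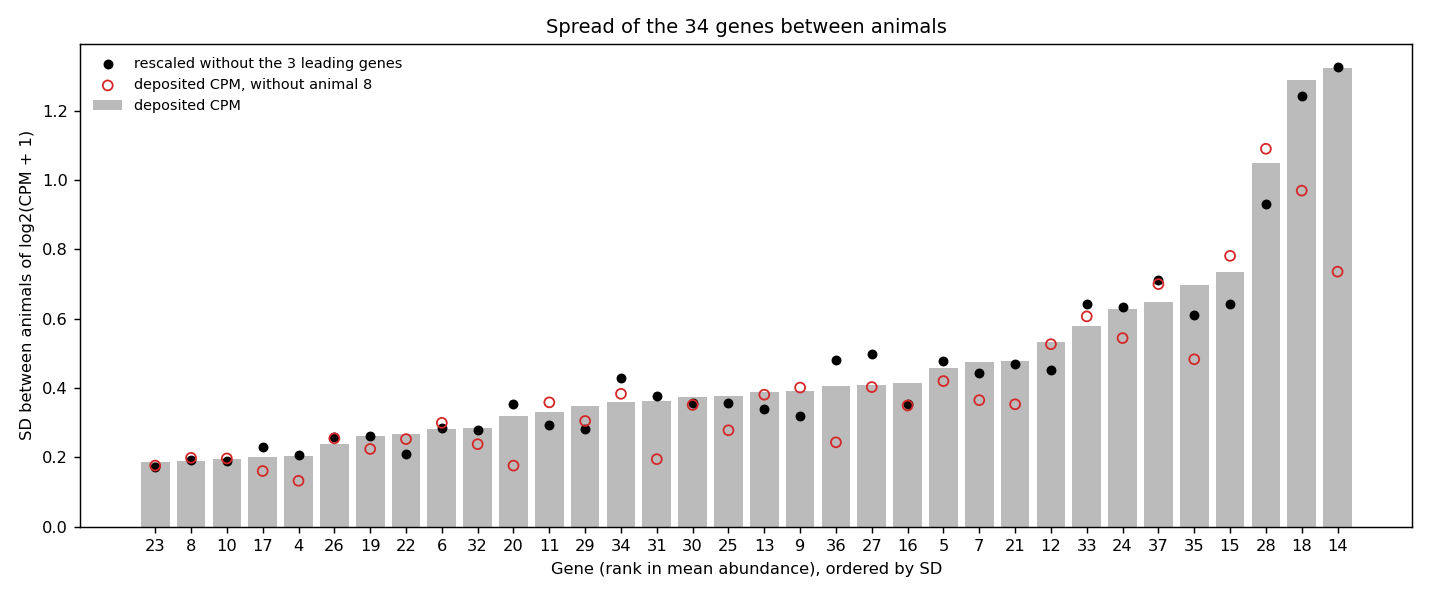
SD between 8 animals of log2(CPM + 1) (vertical axis) for each of the 34 genes, ordered by SD. Bars use deposited CPM, black points the levels rescaled without the 3 leading genes, and open red circles the deposited CPM of 7 animals without animal 8. Rescaling moved the points little, while leaving out animal 8 brought gene 14 from 1.32 to 0.74 and gene 31 from 0.36 to 0.19.

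The animals did not contribute evenly. On deposited CPM, animal 4 was the highest in 9 of the 34 genes and animal 8 in 7, and animal 8 was the lowest in 11. After rescaling animal 4 was the highest in 3 genes and animal 1 in 8, so these counts moved with the scaling. The count of lowest values in animal 8 was 14 after rescaling and 13 with median-of-ratios factors, more than in any other animal under all 3 scalings. Animal 8 lay more than 1.5 times above every other animal in genes 14 and 35, and below every other by that factor in gene 36. Animal 1 did so above in gene 37 and below in gene 28, animal 5 below in gene 15, and animals 2, 3, 4, 6 and 7 in none of the 34 genes. Genes 14, 35, 37 and 15 passed this margin in the same animals under both other scalings. For genes 35 and 37 the margin is partly built in by the choice of genes. Their means were 864 CPM without animal 8 and 796 CPM without animal 1, respectively, below the lower limit. Gene 28 passed it under neither, and gene 36 after rescaling but not with median-of-ratios factors. Under both other scalings gene 18 was also below by this margin in animal 8 and gene 5 above in animal 7. Gene 36 had 1454, 883, 1005, 1067, 1193, 931, 1162 and 558 CPM, and its SD of 0.41 was 0.24 without animal 8.

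Across the 34 genes the libraries resembled each other to different degrees. Pairs of libraries with animal 8 had a Pearson r of 0.517 to 0.778 on log2 values, and the other 21 pairs had 0.648 to 0.953. The median r of an animal with the others was 0.653 for animal 8, 0.694 for animal 1 and 0.827 to 0.862 for the other 6. These values describe libraries across genes, and genes are no independent replicates. By Dixon's ratio, the gap of the most extreme animal divided by the whole range, animal 8 was not marked as an outlier in this median r (0.198) or in its median absolute log2 deviation over the 34 genes (0.492), and neither share of reads marked any animal.

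**Figure D3:**
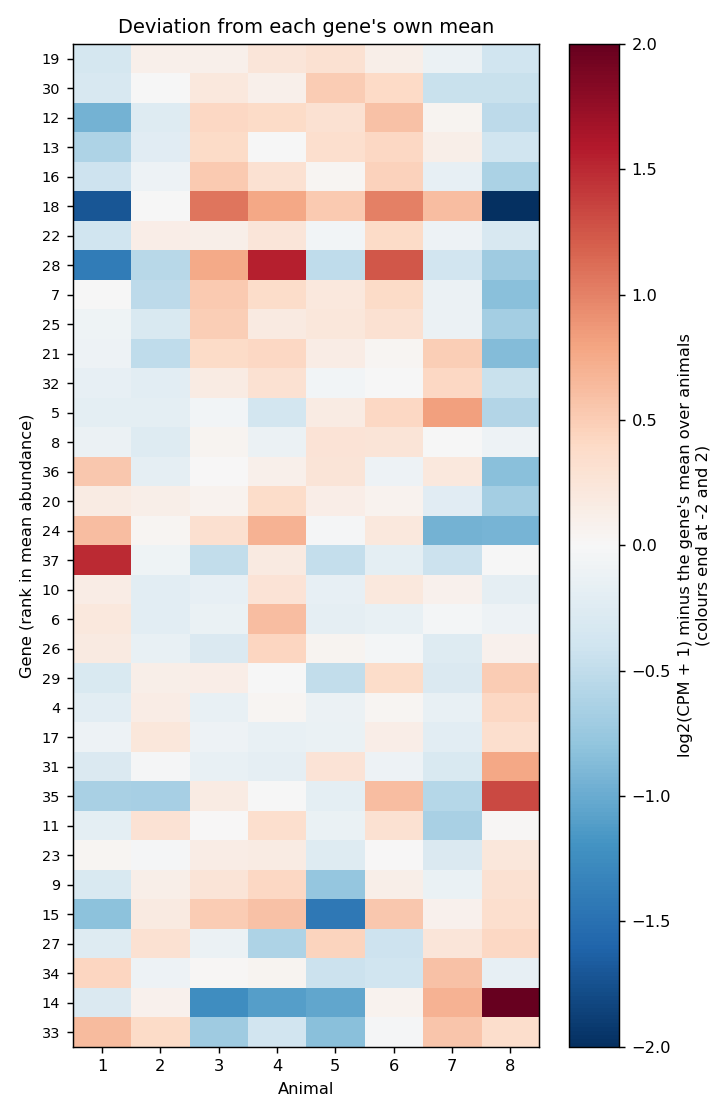
Log2(CPM + 1) of each of the 34 genes (rows) in each of 8 animals (columns) minus the gene's own mean. The colour scale is cut off at its ends. Rows are placed next to rows with a similar pattern, for display only. The strongest colours are the high value of gene 14 in animal 8 and the low values of gene 18 in animals 1 and 8. Next come the high values of gene 28 in animal 4 and of gene 37 in animal 1.

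Dixon's ratio was also taken for each gene. It passed the 95% critical value for 8 samples in 4 of the 34 genes, against 14.7% of the 143 genes averaging 10 CPM or more. The 4 were genes 6, 14, 31 and 37. Gene 31 had 964, 1154, 1054, 1037, 1415, 1091, 946 and 2007 CPM, with animal 8 highest. On the log2 scale only gene 37 passed, with a ratio of 0.658, where 7.69% of the 143 genes did. Gene 37 was among the 34 only through animal 1, the animal marked, since its mean without it was 796 CPM. Its mark is therefore partly built in by the choice of genes. With 7 animals and their own critical value, 1 gene passed without animal 8 and 2 without animal 3.

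Whether the genes rose and fell together over the animals was tested for all pairs among the 143 genes, 10153 in number, of which 561 join 2 of the 34 genes. Each Pearson r of log2(CPM + 1) was set against all 40320 orders of the 8 animals, a two-sided exact permutation test, with Benjamini-Hochberg adjustment over the 10153 pairs. At an adjusted p under 0.05, 0 of the 561 pairs passed with a positive r and 0 with a negative r, and over all pairs the share was 0% in both directions. The smallest adjusted p was 0.097 among the 561 pairs and 0.084 over all. Spearman's rho with the same exact permutation test also gave 0 pairs. Without adjustment, 52 of the 561 pairs (9.27%) had p under 0.05 with a positive r, against 7.95% of all pairs, and 30 (5.35%) with a negative r, against 3.85%. The shares of the 34 genes lay near those of all genes. With 8 animals the smallest p this test can give is 2.5e-05. At least 6 of the 10153 pairs would have to reach it together for any to pass. No pair could thus pass alone, and a count of 0 does not show that co-variation is absent.

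Rescaling without the 3 leading genes changed which pairs stood out. The unadjusted count was then 38 positive pairs, against 6.25% of all pairs, and 32 negative ones, against 5.03%. Of the 82 pairs under 0.05 on deposited CPM, 46 were also under it after rescaling with the same sign, and 0 turned their sign. The median r over the 561 pairs was 0.05 on deposited CPM and -0.01 after rescaling, beside 0.10 and 0.02 over all pairs. Both counts depended on single libraries: the 30 negative pairs became 18, 19, 16 and 15 without animal 2, 3, 4 and 8, respectively. Over all pairs the negative share went the same way, from 3.85% to 2.91, 3.09, 3.41 and 1.96%. Without animal 8 the 15 negative pairs were 2.67% of the 561. The positive count went from 52 with all animals to 41, 41, 38 and 39 without animal 3, 4, 6 and 8. Over all pairs those positive shares were 6.19, 6.53, 6.60 and 6.61%. Without animal 1, 2, 5 and 7 the positive count was 53, 51, 50 and 66, beside 8.07, 6.98, 8.01 and 8.32% of all pairs.

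**Figure D4:**
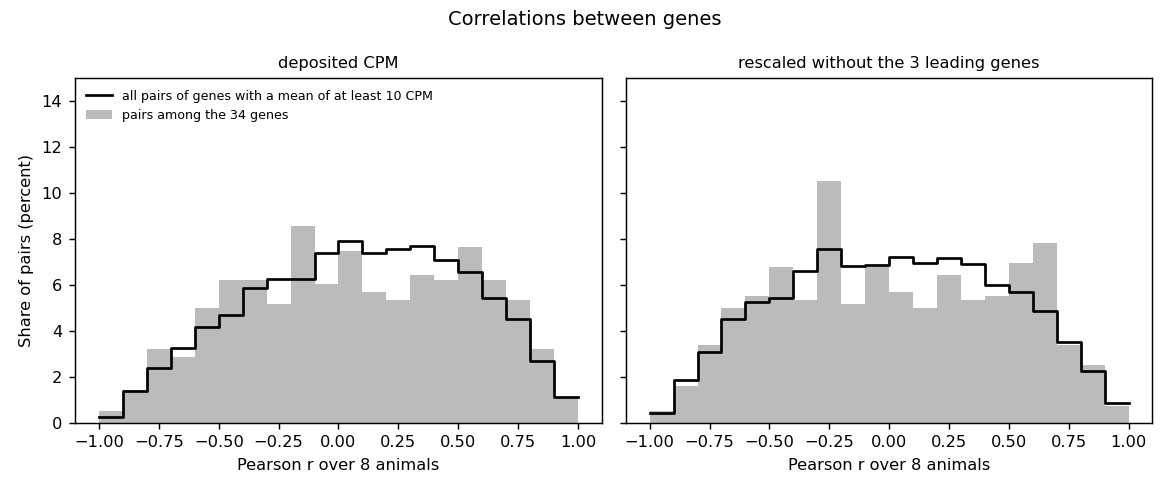
Share of gene pairs in percent (vertical axis) by Pearson r over the 8 animals (horizontal axis), on deposited CPM (left) and after rescaling without the 3 leading genes (right). Grey bars are the 561 pairs among the 34 genes, and the black line is all pairs among the 143 genes averaging 10 CPM or more (on the right without the leading 3). Both distributions are wide, and the median r of the 561 pairs went from 0.05 to -0.01 on rescaling.

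The pairs with the strongest correlations are described although none passed the adjusted test; they were picked after their values were seen. An r of at least 0.9 was found in 6 pairs, 1.07% of the pairs among the 34 genes, against 1.12% of all pairs. The positive share was thus near that of all genes. These pairs join 10 genes into 4 sets. The sets are genes 7 and 25, genes 21 and 32, genes 9 and 15, and genes 12, 13, 16 and 18. An r of -0.9 or below was found in 3 pairs (0.53%, against 0.26% of all pairs).

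Genes 7 and 25 (ENSBTAG00000029798) had the highest r, 0.979, and a rho of 0.976 (exact permutation p = 0.000124 and 0.000397, adjusted p = 0.097 and 0.19). Gene 25 had 1276, 1100, 1910, 1542, 1583, 1683, 1251 and 848 CPM, so both genes were lowest in animals 8 and 2 and highest in animal 3. The level of gene 7 was 3.39 to 4.52 times that of gene 25 in every animal, a ratio that no scaling of the libraries can alter. Without animals 2 and 8, the farthest from the median of gene 7, r was 0.957, and after rescaling it was 0.969.

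Gene 21 had 1632, 1223, 2267, 2340, 1943, 1791, 2450 and 959 CPM, and gene 32 had 1020, 981, 1286, 1405, 1100, 1136, 1524 and 840. Their r was 0.941 and rho 0.976 (exact permutation p = 0.000149 and 0.000397, adjusted p = 0.11 and 0.19). Both were highest in animal 7 and lowest in animals 8 and 2. Without animals 2 and 8 r was 0.952, and after rescaling 0.933.

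Gene 12 had 1911, 3050, 4866, 4795, 4503, 5499, 3793 and 2540 CPM, and gene 13 had 2416, 3176, 4877, 3723, 4721, 4963, 4017 and 2817. Gene 12 was 0.791 to 1.29 times gene 13, with an r of 0.945 and a rho of 0.929 (exact permutation p = 0.000719 and 0.0022, adjusted p = 0.14 and 0.27). Both were lowest in animals 1 and 8, and without those 2 animals r was 0.816. Gene 18, low in the same animals, had an r of 0.905 with gene 12 (rho 0.929) and of 0.90 with gene 16 (rho 0.929). The exact permutation p of these r values was 0.0032 and 0.000298 (adjusted p = 0.19 and 0.14). Without the 2 animals farthest from the median of the more abundant gene, r was 0.912 for genes 12 and 18 and 0.822 for genes 16 and 18. Gene 16 had 2126, 2665, 4106, 3514, 2914, 3901, 2540 and 1831 CPM.

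Genes 9 and 15 had an r of 0.949 and a rho of 0.833 (exact permutation p = 0.000843 and 0.015, adjusted p = 0.14 and 0.38). Both were lowest in animals 5 and 1, and without those animals r was 0.741. After rescaling it was 0.892.

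Among opposite pairs, genes 4 and 36 had the most negative r, -0.940, with a rho of -0.833 (exact permutation p = 0.000843 and 0.015, adjusted p = 0.14 and 0.38). This value depended on the scaling, since r was -0.450 after rescaling and -0.479 with median-of-ratios factors. Genes 14 and 20 had an r of -0.919 and a rho of -0.690 (exact permutation p = 0.0053 and 0.069, adjusted p = 0.22 and 0.54). Without animal 8, highest in gene 14 and lowest in gene 20, their r was -0.693, and without animals 3 and 8 it was -0.850. Gene 20 had 2033, 1965, 1901, 2348, 1991, 1900, 1553 and 1136 CPM, and its SD of 0.32 was 0.18 without animal 8. Genes 17 and 21 had an r of -0.914 and a rho of -0.952 (exact permutation p = 0.0021 and 0.0011, adjusted p = 0.16 and 0.25). Their r was -0.593 without animals 2 and 8, the farthest from the median of gene 17. It was -0.834 without animal 8 alone and -0.806 after rescaling.

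**Figure D5:**
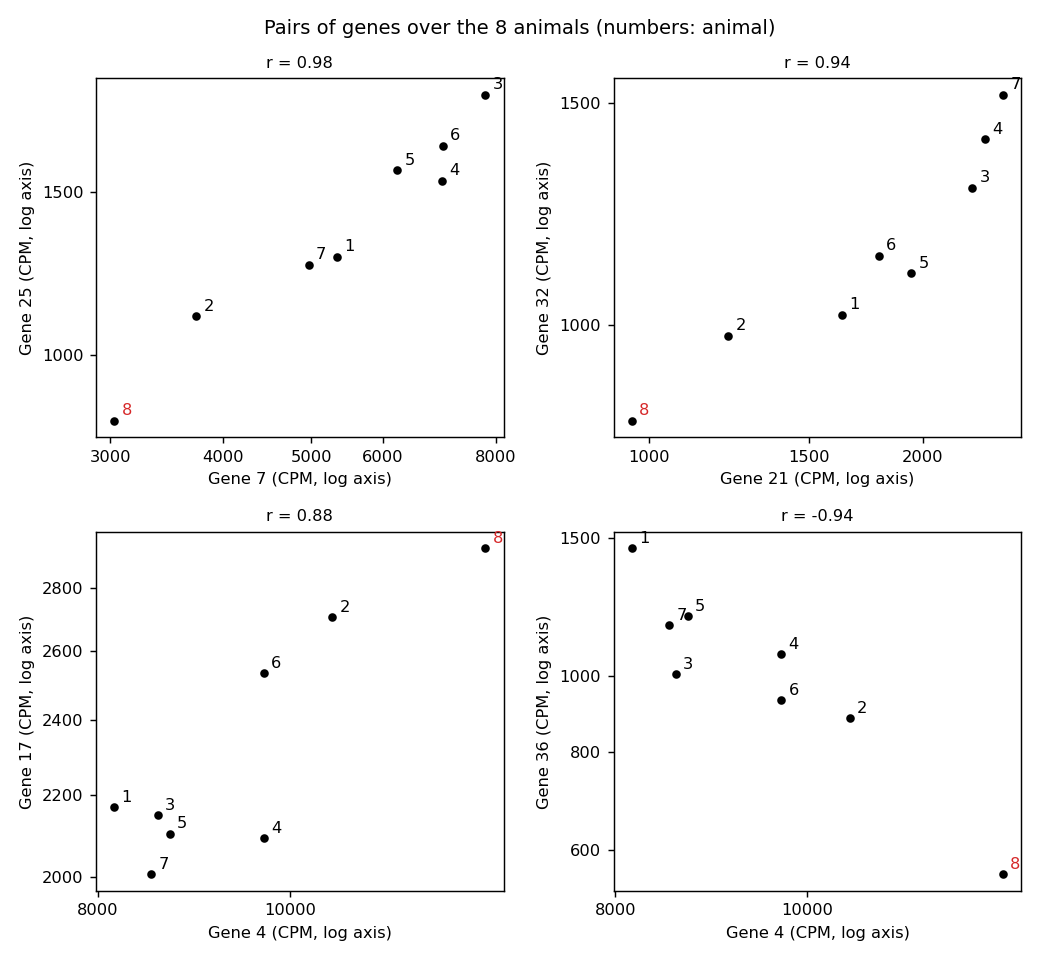
Levels in CPM (log axes) of 4 pairs of genes in the 8 animals, each point labelled with its animal number. Genes 7 and 25 (r 0.98) and genes 21 and 32 (r 0.94) rise along a line through all animals, genes 4 and 17 (r 0.88) are spread mainly by animals 2, 6 and 8, and genes 4 and 36 (r -0.94) run in opposite directions.

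A ratio of 2 genes within a library does not depend on how the library is scaled. Over the 561 pairs the SD between animals of the log2 ratio had a median of 0.58 and ranged from 0.10 to 2.40. The steadiest ratio was that of gene 4 to gene 17, from 3.76 to 4.64 over the 8 animals (SD 0.10). Next came gene 7 to gene 25 (SD 0.13) and gene 19 to gene 22, from 0.904 to 1.40 (SD 0.17). Genes 4 and 17 had an r of 0.878 but a rho of 0.571 (exact permutation p = 0.0055 and 0.15, adjusted p = 0.23 and 0.66). Both had their highest values in animals 8 and 2, without which r was 0.505. Both genes were among the steadiest, with SDs of 0.21 and 0.20 on the log2 scale.

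Genes differed in how many of the other 33 they paired with at an unadjusted p under 0.05. Gene 18 had 10 such pairs with a positive r and gene 16 had 9, while gene 14 had 8 with a negative r and 1 with a positive r. Gene 11 had 0 in either direction. It had 3689, 5154, 4247, 5303, 3830, 5209, 2675 and 4284 CPM, with animal 7 lowest. These counts share animals and genes and are given as a description, for genes picked by their extreme counts. Over all pairs tested, 7.95% had such a p with a positive r and 3.85% with a negative r. Counts per gene outside the 34 are not given, so whether these extremes are unusual was not tested. Single pairs depended on animals to different degrees. Without animals 1 and 8, r went from 0.845 to -0.005 for genes 18 and 19. For genes 12 and 18 it went from 0.905 to 0.912.

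For the 3 most and the 3 least variable of the 34 genes, the most similar of the other 142 genes was looked up by Pearson r. In each case it lay outside the 34. Most of the 142 genes searched lie outside the 34, so this is no finding about the 34 genes. Gene 14 was most like gene 112, at 14.2, 23.1, 8.80, 13.03, 11.8, 21.7, 54.6 and 90.3 CPM in animals 1 to 8. Their r was 0.952 and rho 0.976 (exact permutation p = 7.44e-05 and 0.000397, adjusted p = 0.094 and 0.19), and r was 0.932 without animal 8 and 0.910 without animals 3 and 8. Gene 112 was much rarer, with a mean of 29.7 CPM. Both genes were highest in animals 8 and 7 and lowest in animal 3.

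Gene 18 was most like gene 128 (mean 16.3 CPM), with an r of 0.924 and a rho of 0.833 (exact permutation p = 0.0021 and 0.015, adjusted p = 0.16 and 0.38). Without animals 1 and 8 their r was 0.586. Gene 28 was most like gene 62 (mean 242 CPM), with an r of 0.930 and a rho of 0.929 (exact permutation p = 0.000372 and 0.0022, adjusted p = 0.14 and 0.27), and an r of 0.803 without animals 4 and 6. Gene 23 was most like gene 108 (mean 32.3 CPM), with an r of 0.924 and a rho of 0.881 (exact permutation p = 0.0021 and 0.0072, adjusted p = 0.16 and 0.35), and an r of 0.694 without animals 5 and 7. After rescaling, r was 0.814 for genes 28 and 62 and 0.817 for genes 23 and 108. It was 0.951 for genes 14 and 112 and 0.923 for genes 18 and 128. Genes 8 and 10 had weaker nearest matches. Gene 8 reached an r of 0.816 and a rho of 0.810 with gene 104 (exact permutation p = 0.015 and 0.022, adjusted p = 0.30 and 0.41), and 0.538 after rescaling. Gene 10 reached an r of 0.797 and a rho of 0.810 with gene 50 (exact permutation p = 0.031 and 0.022, adjusted p = 0.37 and 0.41), and 0.646 after rescaling. Without the 2 farthest animals these r values were 0.488 and 0.554.

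The 4 genes not yet described were moderately spread. Gene 27 ran from 855 CPM in animal 4 to 1801 in animal 5, gene 29 from 910 in animal 5 to 1821 in animal 8, gene 30 from 881 in animal 8 to 1716 in animal 5, and gene 34 from 769 in animal 5 to 1565 in animal 7. In each of these 4 genes the lowest and highest animals differed by about 2 times, and their SDs lay between 0.35 and 0.41 on the log2 scale.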

How the data were processed

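Small RNA libraries of 8 animals were sequenced, 1 per animal. The deposited table holds CPM values, which the authors computed from reads assigned to genes; the unit was read from the values, since each column sums to 1000000. Per the submitters' processing notes the tools were CASAVA 1.8.2, FastQC 0.10.0, cutadapt 1.0, Novoalign 2.07.11 and HTSeq. Roles and settings, genome build, annotation and strandedness were not given in the sources used here. Whole reads were recovered for 100% of the 2379 values above 0 (within 0.02 of a read), with 1 read worth 0.170 to 0.275 CPM. They served for depth and counting error. No count test was run because there is 1 group. With 1 library per animal, spread and p-values cover animal, culture and library together.

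Means, SDs, log2(CPM + 1), Pearson and Spearman correlations, exact permutation tests over animals, Benjamini-Hochberg adjustment and Dixon's ratio were computed with scipy 1.17.1, numpy 2.4.6 and pandas 2.3.3 under Python 3.11.15. Pairs were tested among genes that averaged 10 CPM or more, and the pair test was checked on simulated data. The simulated pairs were almost perfectly correlated, and simulated levels were not forced to a fixed sum per library. The check therefore does not cover weaker correlations or the effect of the 3 leading genes on CPM. Values in every animal were given, by rule, for the 6 most abundant, 8 most and 8 least variable genes, those with an outlying animal and those in called pairs; others named were chosen after their values were seen. The rule for the nearest gene covered the 3 most and 3 least variable genes. The 34 genes and lists were chosen with earlier results of these data known. Ratios of genes, similarity of libraries and the other scalings of the 1.5-fold margins were added after the data were seen. Lists that need microRNA names (families, genomic clusters, cell type markers) were not used here. Alternatives were 2 other scalings, pseudocounts of 0.5 and 10, other minimum levels, Spearman's rho, the median for the choice of genes, the coefficient of variation, and leaving out each animal.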

Additional observations from a re-analysis of the deposited data

Results flagged for a closer look

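Dixon's ratio marked an outlying animal in 4 of the 34 genes, and in 14.7% of the 143 genes averaging 10 CPM or more. The 34 genes thus did not exceed the share over all genes. Chance alone marks about 1 in 20 only where values are normally distributed, which was not checked for linear CPM. On the log2 scale the share over all genes was 7.69%. Gene 14 was marked for its 16287 CPM in animal 8 (ratio 0.818), against 985 to 3763 in the others. Gene 37 was marked for 2555 CPM in animal 1 (ratio 0.797), against 649 to 1036. That same value brought gene 37 into the 34, as its mean without animal 1 was 796 CPM. Its mark is thus partly built in by the choice. Gene 6 was marked for 8537 CPM in animal 4 (ratio 0.558), against 4803 to 6455. Gene 31 was marked for 2007 CPM in animal 8 (ratio 0.558), against 946 to 1415. On the log2 scale the ratio was 0.522 for gene 14, 0.658 for gene 37, 0.486 for gene 6 and 0.465 for gene 31, so that only gene 37 passed there. Why these animals stood apart was not tested.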

How the results depend on the processing

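The median SD of the 34 genes (0.38) stayed between 0.35 and 0.41 under every scaling, pseudocount and left-out animal run for it. The number of genes with an SD of at least 1 was 3, then 2 after rescaling or with median-of-ratios factors, and between 1 (animal 8 removed) and 3 when any 1 animal was removed. No pair of the 34 genes passed the adjusted test under the settings with 8 animals. In the main setting no pair could pass alone, since at least 6 of the 10153 pairs would be needed at the smallest p. None passed with 7 either, but there the smallest p is 0.0002 and at least 41 of the 10153 pairs would have to pass together, so those settings say nothing about stability. Pairs with an unadjusted p under 0.05 numbered 52 positive and 30 negative, and with Spearman's rho 40 and 15 (6.47 and 2.75% of all pairs); single animals left out gave 38 to 66 positive and 15 to 32 negative pairs, beside 6.19 to 8.32% and 1.96 to 4.45% of all pairs. Genes with an outlying animal numbered 4, and 1 on the log2 scale; leaving out single animals gave 1 to 4. The share of reads was 9.65%, from 9.47 to 9.84% with single animals left out; counted on the reads outside the 3 leading genes it was 83.5%, as that denominator is smaller by construction. Choosing genes by the median gave 31 of the 34, and leaving out single animals 32 to 34. Of the 8 most variable and the 8 steadiest genes, 6 to 8 were found again whichever animal was left out, and all 8 under the other scalings, pseudocounts and the coefficient of variation. Of 408 alternative SDs of single genes, 14 differed from the main value by over 1 standard error, 6 of them without animal 8. For other changes here the cause was not tested. No paired analysis was possible because the 8 libraries belong to only 1 group.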
